A study of Mus musculus with 32 samples.

Results

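The genes described here are the 4 that make up the hypusine pathway of the mouse: Eif5a and Eif5a2, the genes of the 2 isoforms of the translation factor eIF5A, and Dhps and Dohh, the genes of the 2 enzymes that modify it. They were taken by gene symbol from a table of 17757 genes, and all 4 were present in each of the 32 libraries. The cells were 4T1, a mouse mammary carcinoma line that the labels call triple-negative breast cancer, grown as spheroids over 5 days in a medium made to resemble the interstitial fluid of the lung. ASP shSCR spheroids carried a non-targeting hairpin and received 700 µM aspartate. NoASP shSCR spheroids carried the same hairpin without added aspartate. ASP shGRIN2D and ASP shDHPS spheroids received 700 µM aspartate and were silenced for Grin2d, an NMDA receptor subunit, or for Dhps. All 4 groups carried a lentiviral pLKO vector and were polyclonal pools selected with puromycin, so no group is vector-free. From each of 4 independent pellets per condition, mRNA bound to more than 3 ribosomes (polysomal) and mRNA bound to fewer than 3 (sub-polysomal) was sequenced, which gave 16 libraries per fraction.

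eIF5A binds the ribosome and helps it to form peptide bonds at sequences where it stalls, such as runs of proline, and to terminate. It is active only after a single lysine has been converted to hypusine, a residue found in no other known protein family. Deoxyhypusine synthase (DHPS) transfers an aminobutyl group from the polyamine spermidine to that lysine, and deoxyhypusine hydroxylase (DOHH) then adds the hydroxyl group that completes hypusine. The study asked whether aspartate acts through the NMDA receptor on this pathway and thereby on translation. The mRNA libraries measure neither hypusine nor any protein.

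The coding stretch around the hypusine site is printed because it holds the codon of the lysine that is modified in both isoforms. It spans 45 coding bases, 127 to 171 counted from the start codon, and the capitals mark the codon of the modified lysine, codon 50. The bases were read from the GENCODE transcripts of build GRCm38.
Eif5a: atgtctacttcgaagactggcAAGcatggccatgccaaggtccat
Eif5a2: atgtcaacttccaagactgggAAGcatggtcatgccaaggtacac
The isoforms differed at 6 of these 45 bases, and all 15 encoded residues were equal. Over the aligned coding sequences 72.7% of bases and 82.5% of encoded residues were equal. Their transcripts shared no stretch of 31 bases, so that reads can be assigned to one isoform or the other.

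In GRCm38, Eif5a (ENSMUSG00000078812) lies at chr11:69916714-69921958 on the minus strand and Eif5a2 (ENSMUSG00000050192) at chr3:28781276-28798846 on the plus strand. Dhps (ENSMUSG00000060038) lies at chr8:85071757-85075162 and Dohh (ENSMUSG00000078440) at chr10:81384428-81388352, both on the plus strand. The longest annotated transcripts were 1437 nt for Eif5a, 5027 nt for Eif5a2, 1333 nt for Dhps and 1444 nt for Dohh. The last 128 bases of Dhps overlap Wdr83 on the opposite strand, and 47.5% of the exonic bases of Dohh overlap Gm48551, an annotated gene on the same strand. Gm48551 had 2 to 66 counts per library against 888 to 2965 for Dohh, and the assignment of reads in the shared bases is uncertain. A pseudogene, Eif5al3-ps, shared 6.3% of the 31-base stretches of Eif5a and had 3 to 19 counts per library. Stk38 and S100pbp shared 0.12% and 0.04% of those of Eif5a2 and had 548 to 1883 and 305 to 1079 counts per library. The assignment of reads in these few shared stretches is likewise uncertain.

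The libraries held 12870563 to 25639437 counts. Levels are given as CPM, counts scaled to a common library total, and per kilobase of the longest transcript where genes are compared with each other. The spheroids expressed the epithelial genes that 4T1 should have: Krt8, Krt18, Epcam and Cdh1 averaged 1370, 1040, 536 and 243 CPM. The immune marker Ptprc averaged 0.285 CPM and the endothelial marker Pecam1 0.215 CPM, the fibroblast marker Pdgfra averaged 15.9 CPM, and Pdgfrb, Dcn, Lum, Cd3e, Itgam, Cdh5 and Kdr were not among the 17757 genes.

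One library stood apart. Each library was placed on a scale set by the 3 conditions other than its own. The scale ran from 0, their average sub-polysomal profile, to 1, their average polysomal profile. It used the 11046 genes that reached 10 counts in all libraries. For libraries outside ASP shSCR the scale thus included the ASP shSCR libraries. ASP shSCR replicate 1 had its polysomal library at 0.372. The other 15 polysomal libraries lay at 0.777 to 1.27 and the 16 sub-polysomal libraries at -0.114 to 0.162. This library belongs to the control that every comparison between conditions uses, so values without its pellet are given beside many of the results, though not all.

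Eif5a was among the most abundant mRNAs of the spheroids, ranking 28 of 17757 genes in the polysomal and 56 in the sub-polysomal fraction by mean CPM. Per kilobase, the median level over the 16 polysomal libraries was 1260 CPM for Eif5a, 76.1 for Dohh, 22.9 for Dhps and 1.13 for Eif5a2. In the sub-polysomal libraries the medians were 1300, 60.1, 24.6 and 3.04 CPM per kilobase. The order of the 4 genes was the same in both fractions. Only Dohh and Dhps overlapped, and only in the polysomal libraries, where Dohh spanned 36.8 to 124 and Dhps 6.3 to 37.3 CPM per kilobase. In the sub-polysomal libraries they spanned 42.7 to 74.2 and 6.5 to 32.4 CPM per kilobase, and Eif5a2 stayed below Dhps in both fractions, at 0.255 to 2.51 and 1.79 to 4.46. The substrate mRNA thus outnumbered those of its enzymes: in ASP shSCR the geometric mean level of Eif5a per length was 53.1 times that of Dhps and 19.4 times that of Dohh in the polysomal fraction, and 45.8 and 20.8 times in the sub-polysomal fraction (n = 4).

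**Figure D1:**
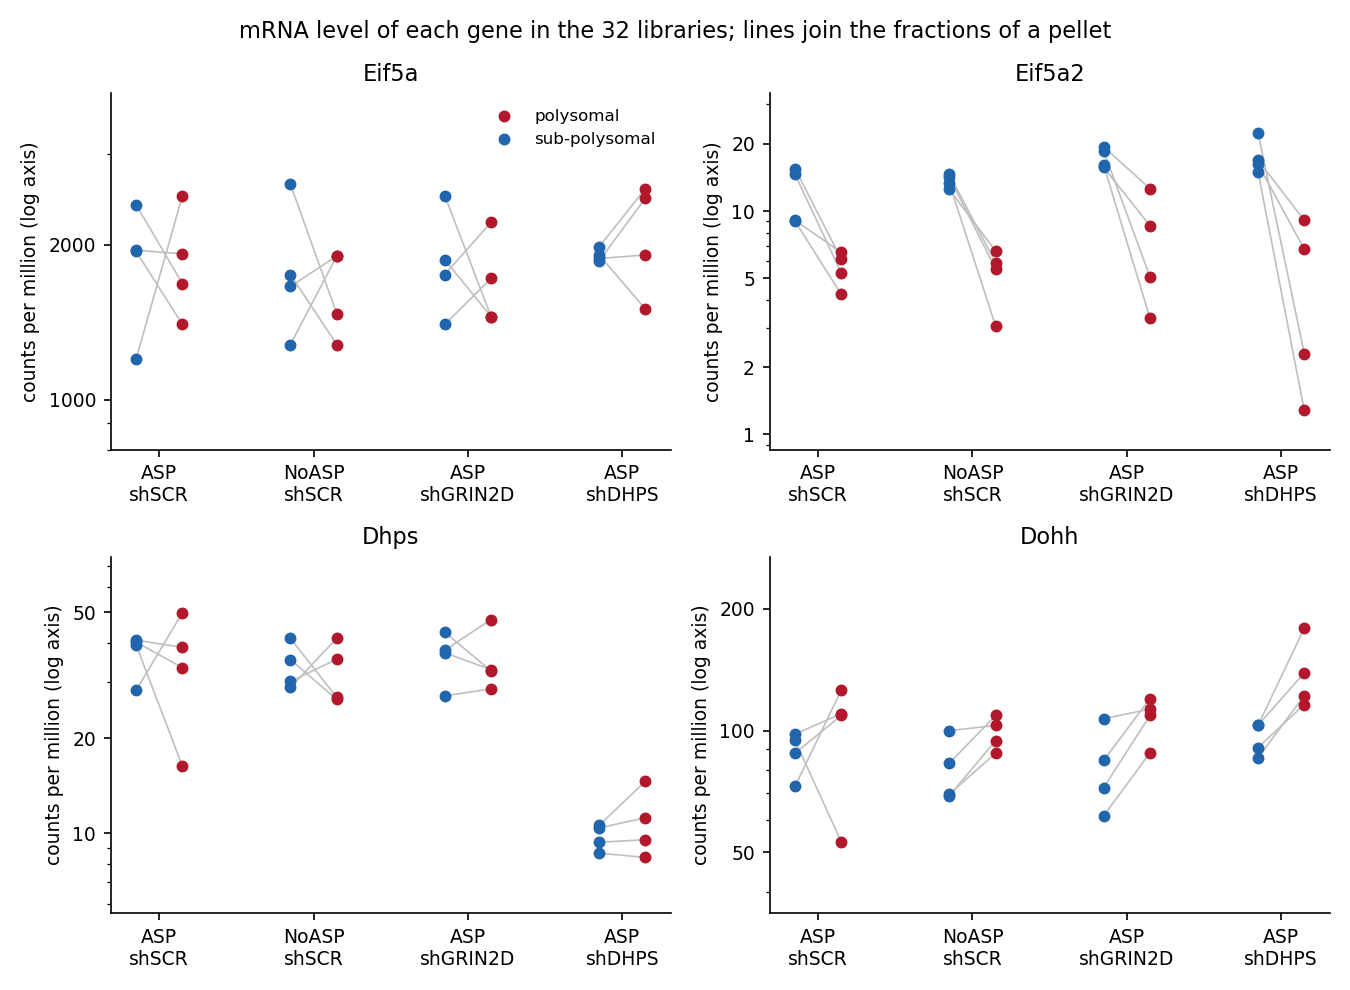
CPM of Eif5a, Eif5a2, Dhps and Dohh (log axis, 1 panel per gene) in each library by condition, sub-polysomal in blue and polysomal in red; grey lines join the fractions of a pellet. Dhps lies at 8.39 to 14.6 CPM in all 8 ASP shDHPS libraries and above that in all others, and Eif5a2 is lower in red than in blue in every pellet.

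Dhps, the silenced gene, fell in ASP shDHPS spheroids in both fractions. In the polysomal libraries of ASP shSCR replicates 1 to 4 it stood at 16.3, 49.8, 38.7 and 33.4 CPM, and in those of ASP shDHPS at 9.55, 14.6, 11.2 and 8.39 CPM. In the sub-polysomal libraries it stood at 39.4, 28.3, 40.8 and 40.2 CPM in ASP shSCR and at 9.37, 10.6, 10.4 and 8.66 CPM in ASP shDHPS. The groups did not overlap in either fraction, although the polysomal library of ASP shSCR replicate 1 came close to the silenced ones. The log2 difference was -1.64 ± 0.23 (SE; 95% interval -2.13 to -1.15, 0.321 of the control level; adjusted p = 0.0167) in the polysomal and -2.01 ± 0.16 (-2.34 to -1.67, 0.249 of the control level; adjusted p = 1.11e-08) in the sub-polysomal fraction, by edgeR's quasi-likelihood test with Benjamini-Hochberg adjustment over all genes. Across all genes that test called 0.169% in the polysomal and 1.41% in the sub-polysomal fraction. Without the pellet of ASP shSCR replicate 1 the differences were -1.78 (adjusted p = 0.00182) and -1.98 (adjusted p = 7.88e-08). The polysomal call was lost, with adjusted p = 0.0546, 0.0963 and 0.111, when ASP shSCR replicate 2, ASP shDHPS replicate 1 or ASP shDHPS replicate 3 was left out, at differences of -1.48 to -1.63. Because each library is a bulk of many cells, fewer cells expressing Dhps and less Dhps mRNA per cell cannot be told apart. Wdr83, the neighbour that overlaps the end of Dhps, differed by 0.19 (95% interval -0.26 to 0.64) and -0.11 (-0.46 to 0.23) in the 2 fractions of ASP shDHPS (adjusted p = 0.704 and 0.795).

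In the other conditions Dhps overlapped the control in both fractions. The log2 difference from ASP shSCR was -0.13 (95% interval -0.60 to 0.34) in the polysomal and -0.20 (-0.52 to 0.12) in the sub-polysomal fraction of NoASP shSCR, and -0.02 (-0.49 to 0.46) and -0.06 (-0.38 to 0.26) in those of ASP shGRIN2D. None of these 4 was called (adjusted p from 0.851 to 1.0).

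Grin2d, whose level checks the label of the other silenced line, was a low mRNA. It stood at 2.14, 1.22, 1.18 and 2.40 CPM in the polysomal and at 2.58, 1.66, 2.35 and 2.82 CPM in the sub-polysomal libraries of ASP shGRIN2D, from 21 to 56 counts each. ASP shSCR had 2.96, 3.06, 4.49 and 3.67 CPM and 3.94, 3.19, 6.52 and 3.23 CPM. The groups did not overlap in either fraction and the direction was that of the label, but neither difference passed the test: -1.14 ± 0.33 (adjusted p = 0.263) in the polysomal and -0.88 ± 0.29 (adjusted p = 0.232) in the sub-polysomal fraction by edgeR, which called 0.0169% and 0.315% of all genes in these comparisons.

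Dohh, the enzyme of the second step, was compared with aspartate withdrawn and with Grin2d or Dhps silenced. Without added aspartate the polysomal libraries of replicates 1 to 4 had 109, 87.9, 103 and 94.5 CPM of Dohh, against 53.1, 126, 110 and 109 CPM in ASP shSCR. The sub-polysomal libraries had 83.1, 69.7, 100 and 69.0 CPM, against 94.6, 72.8, 98.1 and 87.9 CPM. The groups overlapped in both fractions. The log2 difference of NoASP shSCR from ASP shSCR was -0.06 ± 0.20 (95% interval -0.48 to 0.36, adjusted p = 0.995) in the polysomal and -0.20 ± 0.16 (-0.54 to 0.13, adjusted p = 0.854) in the sub-polysomal fraction, in comparisons in which edgeR called no gene. At an unadjusted p under 0.05 these 2 comparisons held 1376 and 871 genes, and the DESeq2 Wald test called 1 gene in each. Without ASP shSCR replicate 1 the differences were -0.15 and -0.17 (adjusted p = 1.0 and 0.918). The sub-polysomal one was -0.33 without NoASP shSCR replicate 3 and -0.11 without replicate 4.

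In ASP shGRIN2D Dohh stood at 113, 120, 88.1 and 109 CPM in the polysomal and at 107, 84.4, 61.6 and 72.3 CPM in the sub-polysomal libraries, again overlapping the control. The differences were 0.05 ± 0.20 (95% interval -0.37 to 0.47) and -0.15 ± 0.16 (-0.48 to 0.18), with adjusted p = 0.986 and 0.775. The sub-polysomal one was -0.27 without ASP shGRIN2D replicate 1 and -0.06 without replicate 3. In ASP shDHPS the polysomal libraries had 179, 116, 139 and 122 CPM, a mean of 139 ± 28.4 CPM against 99.5 ± 31.9 CPM in ASP shSCR (SD, n = 4). This was the largest Dohh difference of the 6, at 0.50 ± 0.20 on the log2 scale or 1.42-fold (95% interval 0.08 to 0.92), and it did not pass adjustment over all genes (adjusted p = 0.222 by edgeR). The groups overlapped, and without ASP shSCR replicate 1, whose polysomal library had the lowest Dohh level of all 32, the difference was 0.40 (adjusted p = 0.39). The sub-polysomal level stood at 103, 90.8, 103 and 85.7 CPM, a difference of 0.03 ± 0.16 (95% interval -0.30 to 0.36, adjusted p = 0.957). With Dhps lowered and Dohh not, the geometric mean level of Dohh per length was 11.8 times that of Dhps in the polysomal and 9.03 times in the sub-polysomal fraction of ASP shDHPS, against 2.74 and 2.20 times in ASP shSCR.

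Eif5a, the ubiquitous isoform, was called in none of the 6 level comparisons. Its polysomal levels in replicates 1 to 4 were 1400, 2490, 1920 and 1680 CPM in ASP shSCR, 1900, 1900, 1470 and 1280 CPM in NoASP shSCR, 1450, 2210, 1720 and 1450 CPM in ASP shGRIN2D and 1910, 2460, 2570 and 1500 CPM in ASP shDHPS. Its sub-polysomal levels spanned 1200 to 2390, 1280 to 2620, 1400 to 2490 and 1860 to 1980 CPM in the same order. All conditions overlapped, and the tightest group was the sub-polysomal one of ASP shDHPS (SD 52.5 CPM). The log2 differences from ASP shSCR ran from -0.29 ± 0.20 (polysomal, NoASP shSCR, 95% interval -0.71 to 0.14) to 0.15 ± 0.20 (polysomal, ASP shDHPS, -0.28 to 0.58), with adjusted p from 0.765 to 0.989. With 1 pellet left out the first was -0.37 (without NoASP shSCR replicate 1) to -0.15 (without replicate 4). The second was 0.06 (without ASP shDHPS replicate 3) to 0.27 (without replicate 4).

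Eif5a2, the isoform with restricted expression in normal tissue and frequent amplification in tumours, was a minor mRNA in these cells. In the sub-polysomal fraction it stood at 9.01, 9.08, 15.5 and 14.6 CPM in ASP shSCR, 13.3, 12.5, 14.2 and 14.6 CPM in NoASP shSCR, 16.1, 19.4, 15.7 and 18.6 CPM in ASP shGRIN2D and 22.4, 16.9, 15 and 16.2 CPM in ASP shDHPS. Every ASP shGRIN2D value lay above the control values, while those of ASP shDHPS overlapped them by 1 library. How many of all genes separated likewise was not counted, so the separation is not read as a result about Eif5a2. In these comparisons edgeR called 0.315% and 1.41% of all genes, and 1955 and 2833 genes had an unadjusted p under 0.05. The log2 differences were 0.52 ± 0.19 (95% interval 0.14 to 0.90, adjusted p = 0.285) for ASP shGRIN2D and 0.48 ± 0.19 (0.10 to 0.86, adjusted p = 0.205) for ASP shDHPS, neither called after adjustment. Without ASP shSCR replicate 1 they were 0.40 (adjusted p = 0.499) and 0.36 (adjusted p = 0.418). Summed epithelial marker levels moved in the opposite direction in these libraries, at 1560 to 1930 CPM in ASP shGRIN2D and 1600 to 2210 CPM in ASP shDHPS against 2390 to 3840 CPM in ASP shSCR. The share of counts in long transcripts (at least 5000 nt, 3000 genes; the longest of Eif5a2 has 5027 nt) was 10.2% to 12.5% in sub-polysomal ASP shSCR, 11.2% to 13.6% in ASP shGRIN2D and 12.8% to 14.2% in ASP shDHPS, the last without overlap with the control. In NoASP shSCR, where the log2 difference of Eif5a2 was 0.11 (95% interval -0.27 to 0.50, adjusted p = 0.921), the share was 11.7% to 14.2%. Across the 16 sub-polysomal libraries, which differ in condition and depth, its Pearson's r with the log2 level of Eif5a2 was 0.55, and across the 16 polysomal ones 0.1, both as a description. The part of these markers and of transcript length in the result was not tested. In the polysomal fraction Eif5a2 stood at 4.23, 6.52, 6.08 and 5.28 CPM in ASP shSCR, 3.05, 6.61, 5.50 and 5.86 CPM in NoASP shSCR, 3.31, 12.6, 8.59 and 5.08 CPM in ASP shGRIN2D and 2.30, 9.09, 1.28 and 6.75 CPM in ASP shDHPS. The ASP shDHPS libraries fell apart into 2 low and 2 high values, from 38, 164, 23 and 123 counts, and the log2 difference of -0.24 had a 95% interval from -1.20 to 0.72.

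**Figure D2:**
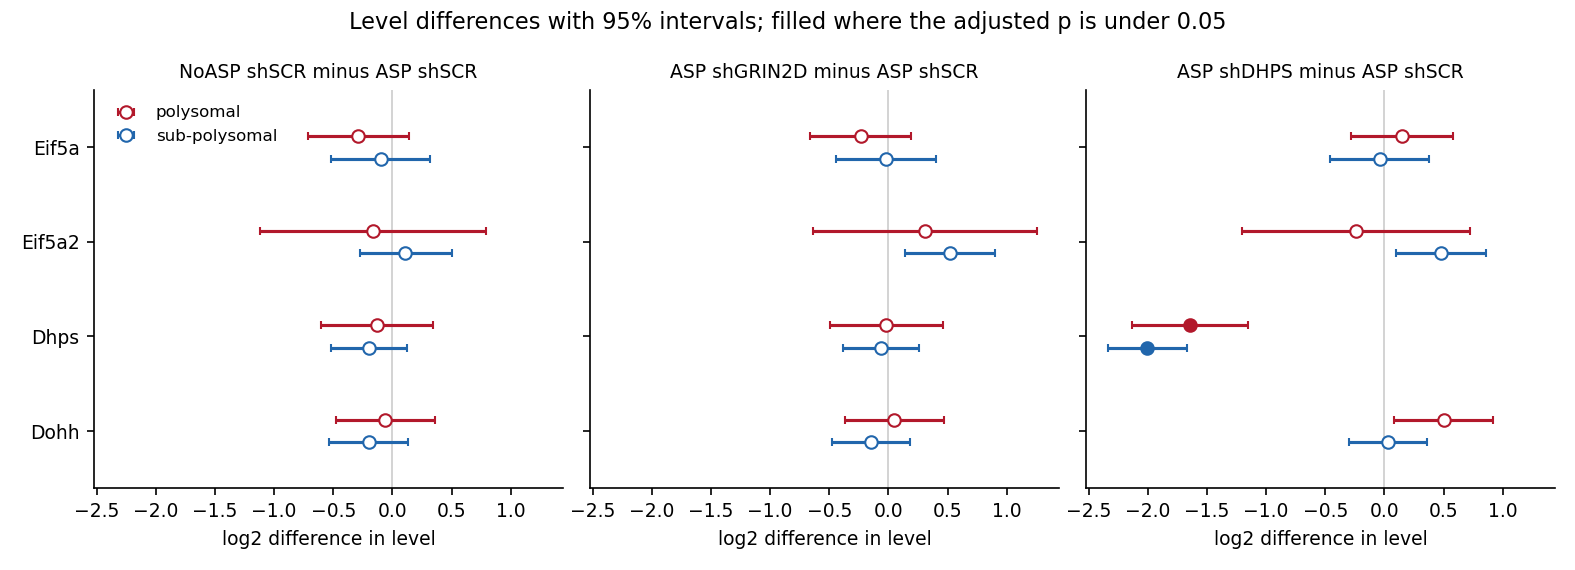
Log2 difference in level from ASP shSCR (horizontal axis) for each gene, 1 panel per condition, polysomal in red and sub-polysomal in blue, with 95% intervals from edgeR; filled points have an adjusted p under 0.05. Only Dhps in ASP shDHPS is filled, at -1.64 and -2.01.

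The polysomal to sub-polysomal ratio compares a gene's share of the 2 fractions with that of the average gene of the libraries. It separated the isoforms: Eif5a2 mRNA was depleted from polysomes in every pellet, while Eif5a, Dhps and Dohh lay near the average gene. For Eif5a2 the log2 ratios of replicates 1 to 4 were -0.98, -0.90, -1.57 and -1.58 in ASP shSCR, -2.27, -1.23, -1.43 and -1.27 in NoASP shSCR, -2.39, -0.90, -1.17 and -1.90 in ASP shGRIN2D and -3.35, -1.04, -3.41 and -1.30 in ASP shDHPS. All 16 were below 0. The fitted ratio was -1.28 ± 0.32 in ASP shSCR (adjusted p = 0.00189), -1.56 ± 0.32 in NoASP shSCR (adjusted p = 0.000224), -1.58 ± 0.32 in ASP shGRIN2D (adjusted p = 0.000181) and -2.22 ± 0.34 in ASP shDHPS (adjusted p = 6.31e-06), each by edgeR over all genes. In these 4 tests 18.9%, 20.6%, 20.4% and 21.3% of all genes were called lower in polysomes, so the direction itself was common. The value of Eif5a2 exceeded those of 16.4%, 14.3%, 14.1% and 7.44% of genes, which places it in the lower part of the distribution and not at its end. Without the pellet of ASP shSCR replicate 1 the ratio in ASP shSCR was -1.43 (adjusted p = 0.00133).

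**Figure D3:**
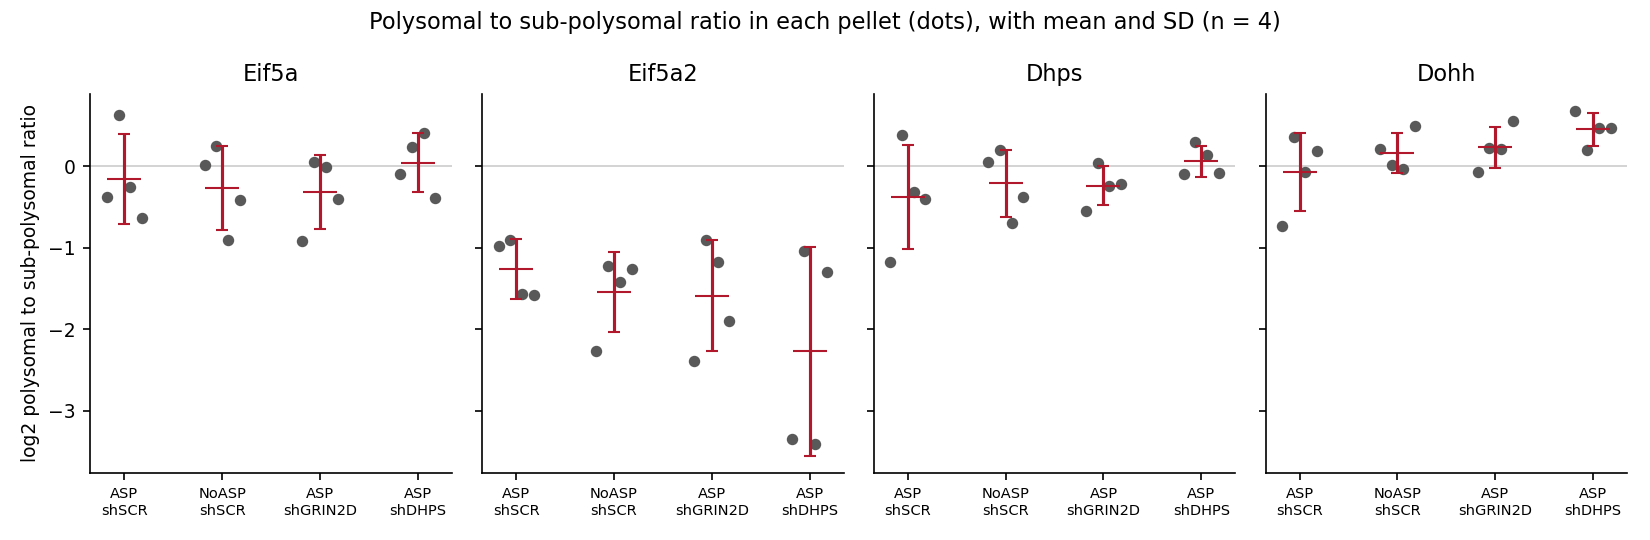
Log2 polysomal to sub-polysomal ratio of each pellet (dots; 1 panel per gene) by condition, with the mean and SD of 4 pellets in red; 0 is the average gene. All 16 Eif5a2 values are below 0, from -3.41 to -0.90, and Dohh is above 0 in 12 of 16 pellets.

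Eif5a was called in no condition, at fitted ratios of -0.17 in ASP shSCR, -0.27 in NoASP shSCR, -0.32 in ASP shGRIN2D and 0.04 in ASP shDHPS (SE 0.23 each, adjusted p from 0.285 to 0.92). With 1 pellet left out these ran from -0.47 (without ASP shSCR replicate 2) to -0.01 (without replicate 4) in ASP shSCR, from -0.44 (without NoASP shSCR replicate 2) to -0.05 (without replicate 3) in NoASP shSCR and from -0.48 (without ASP shGRIN2D replicate 2) to -0.14 (without replicate 1) in ASP shGRIN2D. Its pellets ran from -0.92 to 0.62, with 6 above and 10 below 0. Dhps, at -0.38, -0.21, -0.24 and 0.06, was likewise not called (adjusted p from 0.146 to 0.843). With 1 pellet left out it ran from -0.35 (replicate 2) to -0.05 (replicate 3) in NoASP shSCR and from -0.38 (replicate 2) to -0.16 (replicate 1) in ASP shGRIN2D. Its lowest pellet, at -1.18, was that of ASP shSCR replicate 1. Without that pellet the Dhps ratio in ASP shSCR was -0.18 (adjusted p = 0.535), and without ASP shSCR replicate 2 it was -0.67 and called (adjusted p = 0.0107).

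Dohh was the only member whose fitted ratio lay above 0 in 3 conditions. In replicates 1 to 4 its log2 ratios were -0.74, 0.36, -0.07 and 0.18 in ASP shSCR, 0.21, 0.01, -0.04 and 0.49 in NoASP shSCR, -0.07, 0.22, 0.20 and 0.55 in ASP shGRIN2D and 0.68, 0.19, 0.47 and 0.47 in ASP shDHPS. The 4 ASP shDHPS pellets were all above 0, and the fitted ratio there, 0.45 ± 0.18 (95% interval 0.08 to 0.82), was called with adjusted p = 0.043, as were 21.8% of all genes in that direction. The call was lost in 7 of 16 fits that left out 1 pellet, with adjusted p up to 0.168 without ASP shDHPS replicate 1 and 0.0501 to 0.106 without NoASP shSCR replicates 1, 2 or 3, ASP shGRIN2D replicate 2 or ASP shDHPS replicates 3 or 4. In the other conditions the ratio was -0.06, 0.16 and 0.23 (SE 0.18 each, adjusted p from 0.336 to 0.823). Without ASP shSCR replicate 1 it turned to 0.09 in ASP shSCR.

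**Figure D4:**
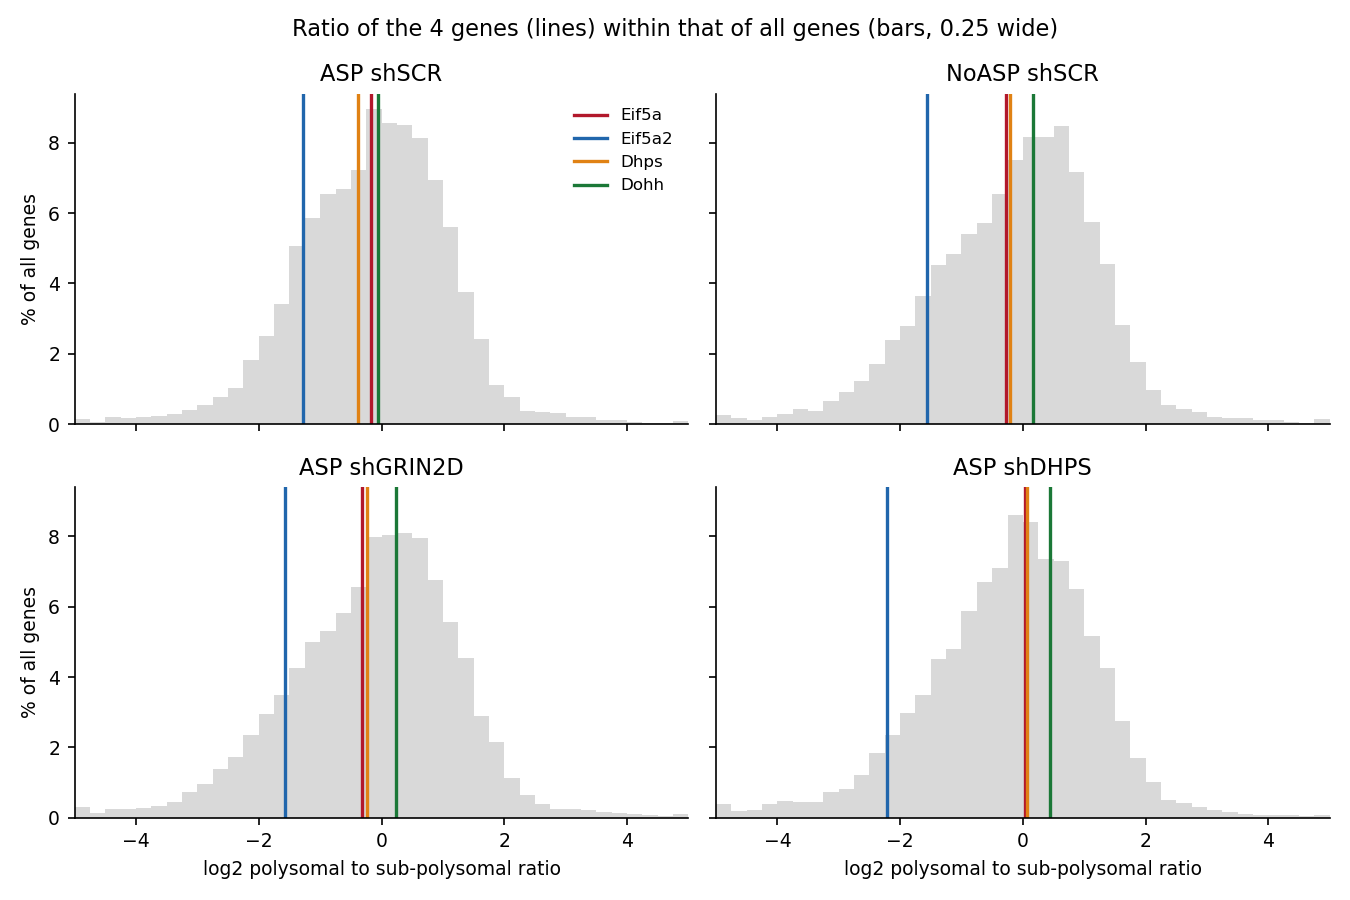
Distribution of the fitted log2 polysomal to sub-polysomal ratio over 17757 genes (grey bars, percent of genes per bin of 0.25; values beyond 5 are in the end bins) in each condition, with the 4 genes as vertical lines. Eif5a2 lies in the lower part of each distribution, at -1.28 to -2.22, and the other 3 lie near its centre.

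None of the 4 genes differed in ratio between conditions after adjustment. For Eif5a2 the difference of ASP shDHPS from ASP shSCR was -0.94 ± 0.46 (95% interval -1.88 to 0.00, adjusted p = 0.367), and for Dohh it was 0.52 ± 0.25 (-0.01 to 1.04, adjusted p = 0.373). In that comparison edgeR called 0.208% of genes, all of them lower. Without ASP shSCR replicate 1 the 2 differences were -0.80 (adjusted p = 0.457) and 0.33 (adjusted p = 0.554). For Eif5a2 the value also rested on ASP shDHPS replicates 1 and 3: it was -0.55 without replicate 1 and -1.40 without replicate 2. The differences of Eif5a and Dhps were 0.21 ± 0.33 and 0.44 ± 0.29 (adjusted p = 0.828 and 0.512). With 1 pellet left out that of Eif5a ran from 0.05 (without ASP shSCR replicate 4) to 0.48 (without ASP shSCR replicate 2), and that of Dhps from 0.21 (without ASP shSCR replicate 1) to 0.71 (without ASP shSCR replicate 2), none of them called. NoASP shSCR and ASP shGRIN2D differed from ASP shSCR by -0.31 to 0.29 for the 4 genes, with adjusted p = 1.0 throughout, in comparisons in which edgeR and DESeq2 called 0 of 17757 genes and 343 and 571 genes had an unadjusted p under 0.05. Without ASP shSCR replicate 1 these differences were -0.19 to 0.11. All 3 comparisons share the ASP shSCR libraries.

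The balance of the isoforms followed from these values. Per length, the Eif5a level was 755, 461, 439 and 573 times that of Eif5a2 in the sub-polysomal libraries of ASP shSCR replicates 1 to 4, and 1160, 1340, 1100 and 1120 times in the polysomal ones. In ASP shDHPS the folds were 294, 386, 462 and 412 in the sub-polysomal and 2910, 945, 7000 and 778 in the polysomal libraries. Eif5a2 thus made up 0.132% to 0.339% of the isoform mRNA in the sub-polysomal libraries and 0.0143% to 0.163% in the polysomal ones. Over all 16 libraries of a fraction the mean log2 balance was 10.27 ± 0.88 in polysomes and 8.76 ± 0.38 below them (SD), or 1240-fold and 432-fold.

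The balance was shifted further towards Eif5a in polysomes in 16 of 16 pellets, by 0.54 to 3.92 on the log2 scale. The mean shift was 1.52 ± 0.93 (SD, n = 16), or 2.86-fold, with p = 3.05e-05 by a two-sided exact sign-flip permutation test over pellets, the smallest p it can give. It was 1.58 without ASP shSCR replicate 1 (exact permutation p = 6.1e-05). This shift restates the low ratio of Eif5a2 and is no separate evidence of it. The shift per pellet was 0.62, 1.54, 1.33 and 0.96 in ASP shSCR, 2.33, 1.49, 0.54 and 0.87 in NoASP shSCR, 1.50, 0.95, 1.17 and 1.51 in ASP shGRIN2D and 3.31, 1.29, 3.92 and 0.92 in ASP shDHPS. ASP shDHPS replicates 1 and 3 were the highest of all, and replicates 2 and 4 lay among the other conditions.

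**Figure D5:**
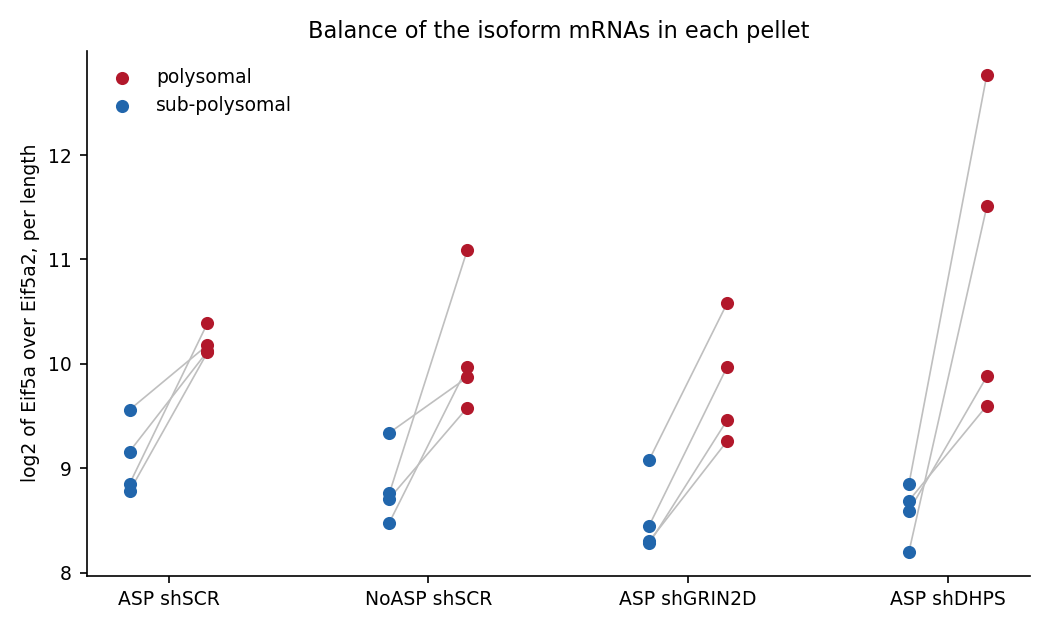
Log2 of the Eif5a level over the Eif5a2 level, each per kilobase of the longest transcript (vertical axis), in every library by condition, sub-polysomal in blue and polysomal in red, with lines joining the fractions of a pellet. Each line rises, by 0.54 to 3.92, and the 2 steepest are those of ASP shDHPS replicates 1 and 3.

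Between conditions all groups overlapped in their balance. Each of 9 differences was given a two-sided exact permutation test, 4 pellets against 4, in which p cannot fall below 0.0286. A single test at that smallest p has an adjusted p of 0.257, and 6 of the 9 would have to reach it for any to pass 0.05, so the lack of a call says little about the conditions. The lowest were the sub-polysomal differences of ASP shGRIN2D and ASP shDHPS from ASP shSCR, -0.56 and -0.51 on the log2 scale, both with exact p = 0.0857 and adjusted p = 0.386 over the 9 tests. Without ASP shSCR replicate 1 they were -0.40 and -0.35 (adjusted p = 0.643 for both). The overlap of ASP shGRIN2D with the control rested on its replicate 1. Without it the other 3 pellets spanned 9.26 to 9.97 against 10.11 to 10.39 in polysomes and 8.28 to 8.45 against 8.78 to 9.56 below them. The differences were then -0.64 and -0.74, each with exact permutation p = 0.0286, the smallest possible, and adjusted p = 0.129. That pellet was picked because it overlapped, so the separation without it is only a description. Sub-polysomal ASP shDHPS likewise overlapped through replicate 3 alone, at 8.85, with 8.2, 8.59 and 8.69 in its other replicates. The polysomal difference of ASP shGRIN2D, -0.38 with all pellets, was -0.1974 without its replicate 2. In ASP shDHPS the polysomal difference was positive, at 0.74 (exact permutation p = 0.429, adjusted p = 0.643). It was 0.1332 without ASP shDHPS replicate 3 and 1.189 without replicate 4. The largest difference in the shift between fractions, 1.25 for ASP shDHPS (2.36 ± 1.48 against 1.11 ± 0.41, SD), had exact permutation p = 0.257 and overlapped the control. It was 0.7283 without ASP shDHPS replicate 3 and 1.729 without replicate 4. In the polysomal libraries of ASP shDHPS replicates 1 to 4 the share of counts in long transcripts was 14.4%, 14.0%, 13.4% and 14.5%, and over all 16 polysomal libraries it was 10.1% to 17.1%, lowest in ASP shSCR replicate 1.

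Of the genes around the pathway, those for spermidine and polyamine supply come first, since spermidine donates the group that DHPS transfers. All 21 listed genes were measured. In the 6 level comparisons and 3 ratio comparisons, edgeR with all pellets called 1 gene, in 2 of them. This was Paox, the peroxisomal oxidase that degrades acetylated polyamines. It fell in the sub-polysomal fraction of both silenced lines, where edgeR called 0.315% (ASP shGRIN2D) and 1.41% (ASP shDHPS) of all genes. It spanned 20.6 to 28.3 CPM in ASP shSCR, 14.4 to 17.6 CPM in ASP shGRIN2D and 12.4 to 15.9 CPM in ASP shDHPS, without overlap with the control. The log2 differences were -0.76 ± 0.16 (adjusted p = 0.0288) and -0.95 ± 0.17 (adjusted p = 0.00222) by edgeR, and -0.73 (adjusted p = 0.0888) and -0.92 (adjusted p = 0.0106) without ASP shSCR replicate 1. The ASP shGRIN2D call was also lost without ASP shSCR replicate 2 or 4 or without any 1 of the 4 ASP shGRIN2D pellets, with adjusted p from 0.0579 to 0.111, and with the 2 conditions fitted alone (-0.76, adjusted p = 0.077). In the polysomal fraction Paox differed by -0.26 ± 0.25 and -0.31 ± 0.25 and was not called. The list's median sub-polysomal difference was 0.03 in ASP shGRIN2D and -0.03 in ASP shDHPS, beside 0.00 and 0.01 over all genes. Its median polysomal difference was -0.33 in NoASP shSCR, -0.26 in ASP shGRIN2D and -0.24 in ASP shDHPS, beside -0.02, -0.04 and -0.05. These 3 polysomal medians share the ASP shSCR libraries, replicate 1 included, and are not given without that pellet.

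Among the 20 members that were not called, Odc1 and Azin2 had large polysomal differences, and they were singled out after their values were seen. Odc1 is the rate-limiting enzyme of polyamine synthesis. Its polysomal levels in ASP shSCR replicates 1 to 4 were 3380, 201, 165 and 221 CPM, against 145 to 254 CPM in NoASP shSCR, 149 to 266 CPM in ASP shGRIN2D and 200 to 291 CPM in ASP shDHPS. One library, the polysomal one of ASP shSCR replicate 1 that stood apart above, was thus far higher than the other 15 polysomal libraries. The log2 differences from ASP shSCR were -2.98 ± 0.81, -2.81 ± 0.80 and -2.40 ± 0.79 (adjusted p = 0.352, 0.261 and 0.145 by edgeR), and without that pellet they were -0.09, 0.06 and 0.48 (adjusted p = 1.0, 1.0 and 0.39). Azin2, an inhibitor of the antizymes that send Odc1 protein to degradation, stood at 70.9, 30.2, 8.86 and 13.6 CPM in polysomal ASP shSCR and at 6.91 to 15 CPM in the other conditions. Its differences were -1.93 ± 0.52 in NoASP shSCR, -1.88 ± 0.52 in ASP shGRIN2D and -2.21 ± 0.52 in ASP shDHPS (adjusted p = 0.352, 0.244 and 0.0839), and -0.70, -0.67 and -1.0 without ASP shSCR replicate 1 (adjusted p from 0.153 to 1.0). DESeq2 called the last 2 with all pellets (adjusted p = 0.0415 and 0.0022), and edgeR did so without ASP shSCR replicate 3 (adjusted p = 0.0496 and 0.0313).

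The same genes differed in how they were divided between the fractions, as did many of all genes (39.7% called in ASP shSCR, 44.3% in NoASP shSCR, 43.5% in ASP shGRIN2D and 43.1% in ASP shDHPS). In ASP shSCR 3 of 21 were called higher and 9 lower in polysomes, beside 20.8% and 18.9% of all genes, with a median log2 ratio of -0.45 beside -0.04. Leaving out replicate 1 of ASP shSCR gave 4 higher and 9 lower and a median of -0.56 beside -0.02. In NoASP shSCR 4 were called higher and 9 lower (23.7% and 20.6% of all genes), with a median of -0.58 beside 0.00. The counts were the same in ASP shGRIN2D (23.0% and 20.4%), with a median of -0.36 beside 0.00. In ASP shDHPS 4 were called higher and 7 lower (21.8% and 21.3%), with a median of -0.25 beside -0.09.

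The other 4 lists held no call by edgeR with all pellets in the 9 comparisons of level and ratio. They comprised 4 genes for transport and acetylation of eIF5A, 9 measured partners of eIF5A in elongation and termination, 7 genes for diphthamide, the modification of elongation factor eEF2, and 11 measured genes of the NMDA receptor and CREB. The genes with the lowest p in each are given as values. Xpo4, the exporter of eIF5A from the nucleus, differed by 0.45 ± 0.18 in sub-polysomal ASP shGRIN2D (adjusted p = 0.325), and Sirt2, a deacetylase of eIF5A, by -0.60 ± 0.24 in polysomal NoASP shSCR (adjusted p = 0.492), which was -0.21 without ASP shSCR replicate 1. Abce1, which recycles ribosomes after termination, differed by 0.65 ± 0.19 in sub-polysomal ASP shDHPS (adjusted p = 0.0748), and Eef1d, a subunit of the exchange factor of eEF1A, by 0.76 ± 0.27 in the ratio of ASP shDHPS (adjusted p = 0.211).

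Both of these genes passed under DESeq2, with adjusted p = 0.0216 and 0.0368. Abce1 also passed with the replicate number as a block, and without ASP shSCR replicate 3 (0.84, adjusted p = 0.0166). Dph1 and Dph2, which act together in the first step of diphthamide synthesis, differed by 0.79 ± 0.29 in the ratio and by 0.89 ± 0.42 in the polysomal level of ASP shDHPS (adjusted p = 0.223 and 0.297). Both were smaller, at 0.54 and 0.57, without ASP shSCR replicate 2. Creb1, the transcription factor that NMDA receptor activity can switch on, differed by -0.81 ± 0.30 in the ratio of ASP shDHPS (adjusted p = 0.225), and by -0.52 without ASP shDHPS replicate 1. Within each condition, 4 to 6 of the 7 diphthamide genes were called higher in polysomes and 1 lower, where 20.8% of all genes in ASP shSCR, 21.8% in ASP shDHPS, 23.7% in NoASP shSCR and 23.0% in ASP shGRIN2D were called higher, with median log2 ratios of 0.72 to 1.06 beside -0.09 to 0.00 over all genes. Such counts are not given here for transport and acetylation, for the partners in elongation and termination, or for the NMDA receptor and CREB. The last of these lists also held calls within conditions.

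Genes with the pattern most like each member were sought by Pearson's r among 10908 genes with a mean of at least 50 counts. Across the 16 sub-polysomal libraries the closest were Sf3b5, Ndufa11 and Ssr2 for Eif5a (r = 0.95, 0.943 and 0.943), Zbtb26, Atp13a3 and Foxn2 for Eif5a2 (0.923, 0.879 and 0.879), Ly6a, Rab3d and S100a16 for Dhps (0.903, 0.896 and 0.89), and Tspan4, Rhoc and Polr1h for Dohh (0.924, 0.92 and 0.908). Atp13a3, a transporter of the polyamine list, had sub-polysomal means (± SD, n = 4) of 103 ± 34.9 CPM in ASP shSCR, 124 ± 18.5 in NoASP shSCR, 143 ± 10.1 in ASP shGRIN2D and 152 ± 21.0 in ASP shDHPS, an order of means that Eif5a2 shared at 12, 13.7, 17.5 and 17.6 CPM. Across the ratios of the 16 pellets the closest were Anapc11, Ap1s1 and Get3 for Eif5a (0.961, 0.95 and 0.95), Capza1, Miga1 and Sinhcaf for Eif5a2 (0.91, 0.909 and 0.889), Commd4, Ndufs7 and Pafah1b3 for Dhps (0.976, 0.965 and 0.958), and U2af1 for Dohh (0.916). No gene was among the 3 closest to more than 1 member. The points share their libraries, and so their depth and their placement between the fractions, and the values are a description.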

How the data were processed

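Counts per gene were deposited as whole numbers. The authors trimmed reads from stranded mRNA libraries, quantified them with Salmon, rounded the estimates and filtered low genes, which left 17757. The submitters' processing notes name Trim Galore 0.6.6, FastQC 0.11.9, STAR 2.6.1, Salmon 1.4.0, DESeq2 1.34.0 and GRCm39. Two-sided quasi-likelihood tests (edgeR 4.0.16, R 4.3.3, TMM) were fitted to all genes with Benjamini-Hochberg adjustment and a threshold of 0.05: levels over the 16 libraries of a fraction, ratios over 32 libraries with a term per pellet. Pellet ratios used a prior count of 2. Alternatives used DESeq2 1.42.0. Tested on simulated data for the ASP shDHPS ratio difference, 172 of 200 genes changed 3-fold were recovered, with 18 false calls among 17757 genes. The changed genes had a mean of at least 50 counts, and all libraries of a fraction were drawn from a common profile. Pellet effects, a library that stands apart and smaller changes were not simulated, so the recovery in the real libraries is not known. Library totals were 12870563 to 25639437 counts; the shallowest member value rested on 23 counts (polysomal Eif5a2 of ASP shDHPS replicate 3). Lengths, positions and sequences are from GENCODE on GRCm38, not the build of the counts.

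The members and gene lists were chosen with earlier results of these data known. From each of 5 lists, every gene called in a level or ratio difference was named, or else the 2 genes with the lowest p, and the 3 genes most like each member. A few genes that this rule or the marker list would name are not reported here. The authors' tables of their own comparisons and gene set scores were not used. Replicate numbers were not used as a block, since same-numbered pellets of different conditions did not deviate together throughout.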

Additional observations from a re-analysis of the deposited data

Results flagged for a closer look

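Dhps in the sub-polysomal library of ASP shSCR replicate 2 stood at 28.3 CPM, apart from 39.4 to 40.8 CPM in the other 3 libraries of its group. Its gap was 0.888 of the group's range. It was 1 of 56 groups tested, and chance marks about 1 in 20. Without this pellet the sub-polysomal Dhps difference of ASP shDHPS was -2.09.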

How the results depend on the processing

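Of 376 values of the 4 genes under alternatives other than left-out pellets, 364 kept their direction and side of the threshold, and the causes of the changes were not tested. Dhps in polysomal ASP shDHPS was -1.65 and no longer called (adjusted p = 0.108) with the compared conditions alone, and -1.78 to -1.48 with 1 pellet left out. The Dohh ratio within ASP shDHPS was 0.42 (adjusted p = 0.0547) with DESeq2 size factors, 0.43 (adjusted p = 0.0722) with its conditions alone, and 0.38 to 0.54 with 1 pellet left out. Uncalled values near 0 changed sign: Dhps in polysomal ASP shGRIN2D to 0.01 with DESeq2 size factors or its Wald test, 0.03 compared alone and 0.04 with TMM over all 32 libraries, the ASP shSCR ratios of Dohh and Eif5a to 0.13 and 0.03 with TMM within fractions, and the ASP shDHPS ratios of Dhps and Eif5a to -0.01 and -0.03 over genes with no library under 10 counts. The Dhps ratio within ASP shSCR was -0.46 and called by DESeq2 (adjusted p = 0.0495). Without division by length the balance was 8.465 in polysomal and 6.949 in sub-polysomal libraries.

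Leaving out 1 pellet turned the sign of other uncalled values, in these ranges. In the ratio difference of NoASP shSCR Dhps ran from -0.08 to 0.42 and Eif5a from -0.27 to 0.16, and in that of ASP shGRIN2D they ran from -0.10 to 0.40 and from -0.31 to 0.12. In the polysomal level of NoASP shSCR Eif5a2 ran from -0.24 to 0.03, Dhps from -0.25 to 0.03 and Dohh from -0.15 to 0.03. In that of ASP shGRIN2D the ranges were -0.06 to 0.55 (Eif5a2), -0.17 to 0.15 (Dhps) and -0.06 to 0.15 (Dohh), and in that of ASP shDHPS -0.66 to 0.13 (Eif5a2). In the sub-polysomal level they were -0.01 to 0.25 (Eif5a2) and -0.33 to 0.03 (Eif5a) for NoASP shSCR, -0.13 to 0.03 (Dhps) and -0.15 to 0.09 (Eif5a) for ASP shGRIN2D, and -0.03 to 0.08 (Dohh) and -0.18 to 0.07 (Eif5a) for ASP shDHPS. The ratio within ASP shSCR ran from -0.25 to 0.09 for Dohh, and that within ASP shDHPS from -0.01 to 0.12 for Dhps and from -0.08 to 0.18 for Eif5a. The log2 balance difference of NoASP shSCR ran from -0.3903 to 0.1127 in polysomes and from -0.1473 to 0.4489 between fractions. Polysomal Odc1 ran from -3.18 to 0.06 in ASP shGRIN2D and from -2.77 to 0.48 in ASP shDHPS.

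The number of genes called in the whole table, the background to the members, depended more on the settings. For the ASP shDHPS ratio difference (37 genes) it was 0 with DESeq2 size factors, compared alone or without the pellet term, 266 over genes with no library under 10 counts, 188 with filterByExpr, 184 with TMM within fractions and 626 with DESeq2. For polysomal ASP shGRIN2D (3 genes) it was 7 with DESeq2 size factors, filterByExpr or TMM over all 32 libraries, 6 with that filter, 0 compared alone and 73 with DESeq2. For polysomal ASP shDHPS (30 genes) it was 554 with DESeq2, 1 compared alone and 7 with TMM over all 32 libraries. DESeq2 called 1 gene in each fraction of NoASP shSCR, 224 in sub-polysomal ASP shGRIN2D (56 genes) and 651 in sub-polysomal ASP shDHPS (251 genes). With 1 pellet left out the counts were 0 (without ASP shSCR replicate 4) to 159 (without ASP shGRIN2D replicate 1) for the ASP shDHPS ratio difference, 0 (ASP shSCR replicate 4) to 98 (ASP shSCR replicate 3) for polysomal ASP shGRIN2D, 0 (ASP shSCR replicate 2) to 304 (ASP shSCR replicate 3) for polysomal ASP shDHPS, 23 to 64 for sub-polysomal ASP shGRIN2D and 80 to 370 for sub-polysomal ASP shDHPS.

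With a replicate block the counts were 231 for the ASP shDHPS ratio difference, 27 and 405 for polysomal ASP shGRIN2D and ASP shDHPS, and 195 and 758 for the sub-polysomal ones; it changed no call of a member, and of the list genes tested under it only Abce1 gained a call (adjusted p = 0.0181), while both Paox calls passed (adjusted p = 0.0103 and 0.000591). The samples share only a number: same-numbered pellets correlated at a median of 0.125 (-0.242 to 0.641), with 13 of 24 pairs over 0.1, beside a median of -0.0301 and 20 of 72 pairs for different numbers, and 8 of 16 pellets correlated best with their own number.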
